A study of Homo sapiens with 10 samples.

Results

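The gelsolin family was followed through the transcriptomes of human sensory neuron cultures, starting from advillin (AVIL), the gene that carries the fluorescent reporter of the study. Its members were taken by name from the gene-level table: AVIL, VIL1, VILL, GSN, SCIN, CAPG, FLII and SVIL, 8 of 30357 named genes, and all 8 had a row. All cultures were made from 1 edited version of RUES2, a widely used line of human embryonic stem cells, with tdTomato placed at AVIL, and no unedited cells stand beside them. The cells went through a proprioceptor protocol (3 libraries), a mechanoreceptor protocol (3 libraries) or a nociceptor protocol (4 libraries), named for neurons that sense muscle stretch, light touch and painful stimuli, and RNA was taken at day 60 in vitro. The labels call the libraries biological replicates but do not state that each was differentiated separately. The p-values below therefore set each difference only against the spread among these libraries. That spread may in part be technical and may not be that of separate differentiations. Whether the cells were sorted by reporter fluorescence is not stated in the labels, and the RNA of tdTomato itself was not analysed here.

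Proteins of this family are built from repeated gelsolin domains, which bind actin and in several members sever filaments or cap their fast-growing ends when calcium rises. Villin-type members carry an additional headpiece domain that lets them bundle filaments. Advillin is the member best known from peripheral sensory neurons, which is why its gene serves as a reporter locus for them, and it is also made by the tuft cells of epithelia.

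The cultures had the RNA of neurons in all 10 libraries. The 14 pan-neuronal markers summed to 14152 to 25421 TPM (abundance per unit of transcript length, relative to the library's total) in the proprioceptor libraries. They summed to 14301 to 24043 TPM in the mechanoreceptor libraries and to 8094 to 19497 TPM in the nociceptor libraries, and each of the 14 reached 1 TPM in every library. The 13 sensory identity markers summed to 1464 to 2637, 1357 to 2014 and 725 to 2750 TPM in the proprioceptor, mechanoreceptor and nociceptor libraries. Non-neuronal markers differed between libraries of 1 protocol. The 10 markers of Schwann and satellite glia summed to 70.7 to 2418 TPM in the proprioceptor libraries, 17.7 to 1946 TPM in the mechanoreceptor libraries and 415 to 7207 TPM in the nociceptor libraries. The 14 markers of fibroblasts and mesenchyme spanned 468 to 1879, 526 to 1998 and 995 to 4229 TPM in these same groups. Of these, 4, 12 and 5 reached 1 TPM in proprioceptor libraries 1 to 3. In mechanoreceptor libraries 1 to 3 it was 5, 7 and 12. In nociceptor libraries 1 to 4 it was 13, 13, 12 and 10. COL1A1 ran from 1.77 to 1984 TPM over the 10 libraries, while THY1 stayed at 8.40 to 9.47 log2 CPM (CPM being counts relative to library size). No marker of any of the 11 marker lists was at 0 in all libraries, but none of the 7 skeletal muscle markers reached 1 TPM, and 3 of the 5 markers of intestinal and tuft cells were low throughout, TRPM5 at 0.0271 TPM or below, CDX2 at 0.0955 TPM or below and POU2F3 at 0.253 TPM or below. In the same list LGR5 reached 1.12 TPM, in nociceptor library 1, and DCLK1, which neurons also express, made up most of the list's sum of 10.3 to 44.4 TPM. The libraries held 27891186 to 44541262 counts in named genes.

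The promoters of AVIL and of the members whose levels moved together below, GSN, CAPG and SVIL, are shown to set their base composition side by side. Each is the RefSeq window of 250 bases before to 50 bases after a gene start (GRCh38.p14) that holds the annotated start of the most abundant of the gene's transcripts named here (for SVIL these hold only 18.7% to 62.1% of the gene level), and capitals mark the GC box, GGGCGG on either strand. They lie at chr12:57818685-57818984 (minus strand) for AVIL, chr9:121267912-121268211 (plus strand) for GSN, chr2:85413967-85414266 (minus strand) for CAPG and chr10:29735752-29736051 (minus strand) for SVIL.
AVIL: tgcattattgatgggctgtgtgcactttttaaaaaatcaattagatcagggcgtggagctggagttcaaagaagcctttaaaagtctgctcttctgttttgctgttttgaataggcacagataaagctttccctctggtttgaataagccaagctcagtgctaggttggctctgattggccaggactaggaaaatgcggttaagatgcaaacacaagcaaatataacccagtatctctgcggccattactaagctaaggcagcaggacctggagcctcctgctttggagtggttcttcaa
GSN: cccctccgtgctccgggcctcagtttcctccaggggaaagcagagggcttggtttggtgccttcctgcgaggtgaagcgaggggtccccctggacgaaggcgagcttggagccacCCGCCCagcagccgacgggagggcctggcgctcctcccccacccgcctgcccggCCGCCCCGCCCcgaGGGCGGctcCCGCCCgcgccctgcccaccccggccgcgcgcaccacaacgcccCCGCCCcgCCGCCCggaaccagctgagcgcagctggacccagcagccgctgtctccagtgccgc
CAPG: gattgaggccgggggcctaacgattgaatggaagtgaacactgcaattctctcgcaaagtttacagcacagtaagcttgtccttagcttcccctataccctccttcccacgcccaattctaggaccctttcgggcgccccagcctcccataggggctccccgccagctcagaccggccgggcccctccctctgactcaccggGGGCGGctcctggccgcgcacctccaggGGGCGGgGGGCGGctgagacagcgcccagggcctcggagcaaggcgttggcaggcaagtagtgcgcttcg
SVIL: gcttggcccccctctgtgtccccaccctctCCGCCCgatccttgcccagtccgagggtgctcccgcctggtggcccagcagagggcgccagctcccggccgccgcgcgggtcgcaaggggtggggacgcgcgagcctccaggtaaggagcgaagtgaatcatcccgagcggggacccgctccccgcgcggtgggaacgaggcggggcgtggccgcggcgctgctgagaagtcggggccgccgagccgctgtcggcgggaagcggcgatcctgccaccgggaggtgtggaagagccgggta
The AVIL window had no GC box and a GC content of 44.3%. The GSN window had 7 GC boxes, some of them overlapping, and a GC content of 76.3%. CAPG had 3 at 65.0% GC, and SVIL had 1 at 74.7% GC. Among 34943 RefSeq windows of this length, 44.9% held a GC box and the median GC content was 58.7%. CAPG and SVIL each held 1 match to TGANTCA, a loose AP-1 pattern with any base in the middle. It is held by 7.72% of all windows, and AVIL and GSN held none. The match reads TGACTCA in CAPG and TGAATCA in SVIL. GSN held 2 matches to the E-box letters CANNTG (68.7% of windows), and AVIL and CAPG each held 1 CCAAT box (34.6% of windows). A match is only a run of letters in these windows and says nothing about binding in the cultures.

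By level, the family spread over several orders of magnitude, with gelsolin at the top and villin close to nothing. Averaged over the 10 libraries, GSN had 263.7 TPM, FLII 60.5, CAPG 15.7, SVIL 11.8, AVIL 2.15, VILL 1.08, SCIN 0.556 and VIL1 0.0499 TPM. TPM is corrected for length, so these levels can be set beside each other. This holds less for low members, whose TPM did not always follow their counts. SCIN had 0.197 TPM from 48 counts in proprioceptor library 3 and 0.934 TPM from 46 counts in nociceptor library 4. AVIL had 1.30 TPM from 88 counts in proprioceptor library 1 and 1.87 TPM from 40 counts in nociceptor library 3. GSN alone made up 36.6% to 86.6% of the family's TPM in a library. Neighbours in this order were not all apart. GSN exceeded FLII in 7 of 10 libraries, CAPG exceeded SVIL in 3 and VILL exceeded SCIN in 7, while SVIL exceeded AVIL and SCIN exceeded VIL1 in all 10. FLII exceeded CAPG in 9 and AVIL exceeded VILL in 9. AVIL, the reporter gene, stood at percentile 58.9 of all named genes by mean TPM, and GSN at percentile 97.8.

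**Figure D1:**
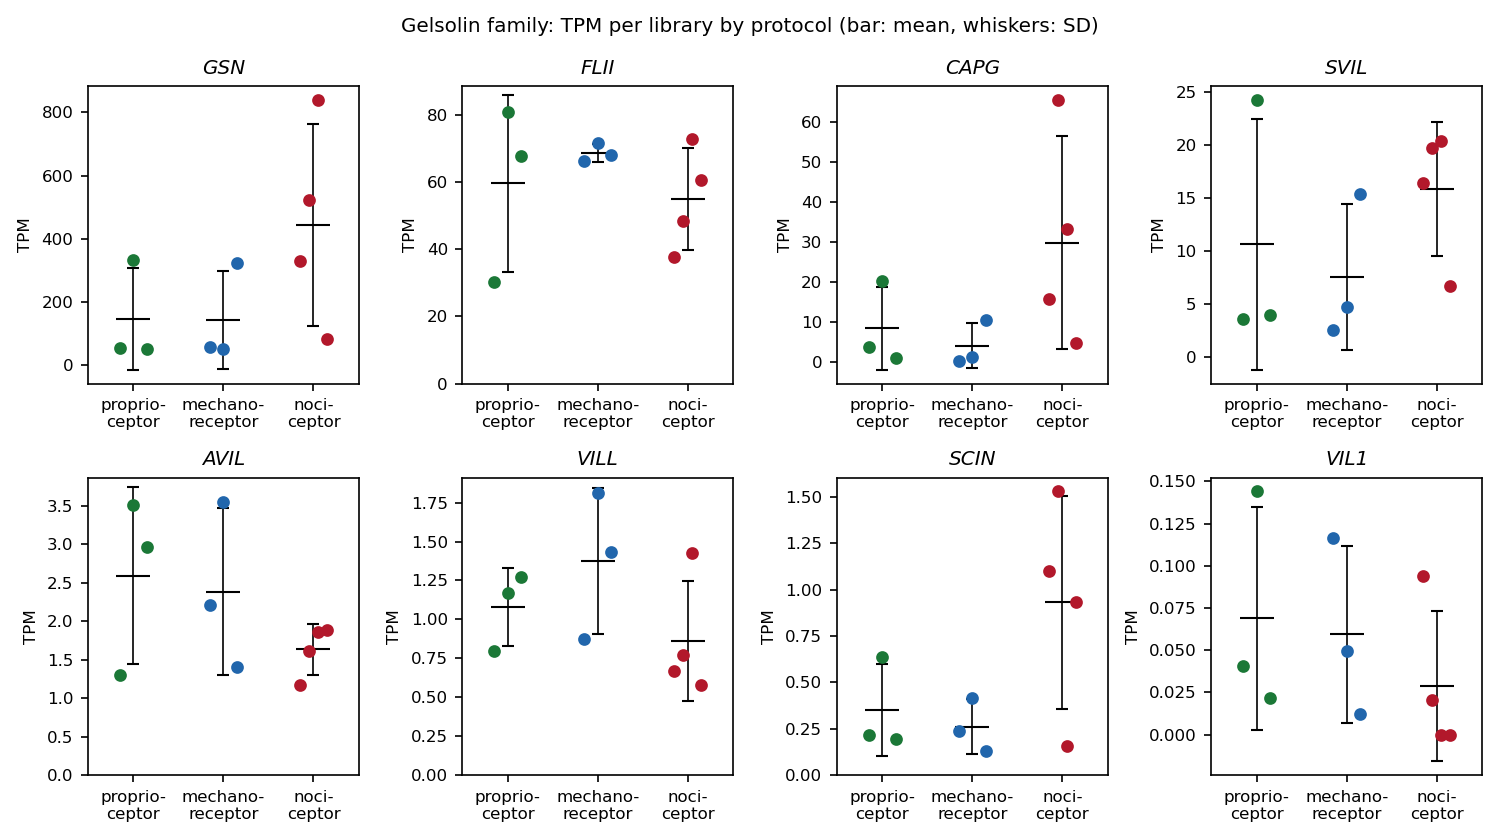
TPM of each of the 8 gelsolin family genes (vertical axis, 1 linear scale per panel) in the proprioceptor, mechanoreceptor and nociceptor libraries. Points are single libraries, horizontal bars are means and whiskers are SDs (n = 3, 3 and 4). GSN, CAPG and SVIL each have 1 high proprioceptor library and 1 high mechanoreceptor library, and the ranges of the protocols overlap in every panel.

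AVIL was low everywhere and highest in single proprioceptor and mechanoreceptor libraries. The gene lies on chromosome 12 from 57797380 to 57818734 (RefSeq, GRCh38.p14, as for the other members). It had 1.30, 3.51 and 2.97 TPM in proprioceptor libraries 1 to 3, from 88, 119 and 133 estimated counts. In mechanoreceptor libraries 1 to 3 it had 2.21, 3.55 and 1.40 TPM, from 122, 238 and 70 counts. Nociceptor libraries 1 to 4 had 1.17, 1.61, 1.87 and 1.89 TPM, from 64, 89, 40 and 82 counts. In TPM, the 4 nociceptor libraries were close together, and each of the other protocols held 1 library within their range and 2 above it. In CPM, closer to the scale of the test, nociceptor libraries 1 to 4 had 1.44, 2.54, 1.28 and 2.94. Proprioceptor libraries 1 to 3, at 3.16, 3.74 and 3.56, lay above all of these. Mechanoreceptor libraries 1 to 3 had 3.23, 6.28 and 2.13. The means were 2.59 ± 1.15, 2.39 ± 1.08 and 1.63 ± 0.334 TPM (SD, n = 3, 3 and 4) for the proprioceptor, mechanoreceptor and nociceptor protocols.

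The log2 fold change of AVIL was 0.88 ± 0.47 (SE) for mechanoreceptor minus nociceptor, with an adjusted p of 0.613 in edgeR's quasi-likelihood test. For proprioceptor minus nociceptor it was 0.85 ± 0.47 (adjusted p 0.665), and for proprioceptor minus mechanoreceptor it was -0.04 ± 0.51 (adjusted p 1). None of these passed the threshold of 0.05 on p adjusted over all 16130 genes tested. The first of them rested on few libraries. Without mechanoreceptor library 2 it was 0.30 ± 0.51. The second ran between 0.69 and 1.03 as each library was left out in turn, without a call.

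The AVIL entry with the highest mean TPM was a long one, ENST00000549994. It had 0.968, 1.32 and 1.43 TPM in proprioceptor libraries 1 to 3, with 77, 84 and 107 counts. It had 1.46, 2.51 and 0.743 TPM in mechanoreceptor libraries 1 to 3, with 105, 201 and 49 counts. It had 0.316, 0.750, 0.229 and 0.990 TPM in nociceptor libraries 1 to 4, with 27, 59, 15 and 60 counts. The 3 lowest values were in nociceptor library 3, nociceptor library 1 and mechanoreceptor library 3. The ratio of counts to TPM implied a length of 3091 nt for this entry (3085 to 3109 over 9 libraries with at least 20 counts), whereas GENCODE release 29 lists the identifier, in an earlier version, as a fragment of 568 nt. On transcripts whose version was unchanged, this way of reading a length had a median error of 0.149% to 0.193% per library.

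The other long coding entry, ENST00000257861, of 2891 nt and 819 codons with a different first exon, was at 0 in 9 of 10 libraries and had 4 counts in mechanoreceptor library 3. In those 9 libraries, a count of 0 allows a share of up to 1.26% to 7.50% of AVIL counts, for counting error only. The rest of AVIL lay in retained-intron and other noncoding models, some of which share bases with exons of TSFM, a mitochondrial translation factor gene on the opposite strand. ENST00000550537 shares 82 of its bases with TSFM exons, ENST00000257861 shares 91 and ENST00000546952 shares 212. The last of these had 15 of the 64 AVIL counts in nociceptor library 1. ENST00000549994 shares 0 in its annotated part of 568 nt. Its implied length was 3091 nt, and the overlap of the rest was not determined. TSFM had 40.9 to 63.7 TPM under the proprioceptor protocol, 43.5 to 64.1 TPM under the mechanoreceptor protocol and 31.0 to 49.7 TPM under the nociceptor protocol. Strand was not kept by the kit, so their reads cannot be told apart where they overlap. The nearest genes on either side had 15.3 to 32.9 TPM (METTL1), 1.19 to 9.95 TPM (EEF1AKMT3), 2.27 to 26.5 TPM (CTDSP2) and 3.55 to 13.1 TPM (ATP23) over the 10 libraries.

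As a share of AVIL TPM, ENST00000549994 took 53.3% ± 18.9, 63.3% ± 9.26 and 34.5% ± 18.4 in the proprioceptor, mechanoreceptor and nociceptor libraries (SD, n = 3, 3 and 4). The mechanoreceptor libraries, at 53.0% to 70.8%, lay above the nociceptor libraries, at 12.3% to 52.3%, by a narrow gap. The difference was 28.8 percentage points (two-sided exact permutation test, p = 0.0571, Benjamini-Hochberg adjusted p 0.45 over 21 share tests). The proprioceptor libraries, at 37.5% to 74.3%, overlapped both. They were 18.8 points above the nociceptor libraries (exact permutation p = 0.257, adjusted p 0.491) and 9.98 points below the mechanoreceptor libraries (difference -9.98, exact permutation p = 0.5, adjusted p 0.656). Without proprioceptor library 1, the difference from the nociceptor libraries was 8.30 points, and without nociceptor library 3 it was 11.4 points. The smallest p these tests can give is 0.0286 with 4 libraries against 3, and 0.1 with 3 against 3. By counts, in which short fragments weigh less, the mechanoreceptor minus nociceptor difference was 25.4 points (exact permutation p = 0.143). The mechanoreceptor shares by counts, 70.0% to 86.1%, overlapped the nociceptor shares, 37.5% to 73.2%. Proprioceptor shares by counts were 70.6% to 87.5%. Their difference was 24.7 points from the nociceptor libraries (exact permutation p = 0.143) and -0.66 points from the mechanoreceptor libraries. The proprioceptor libraries thus lay between the other protocols in TPM but not clearly by counts. In an edgeR fit over 76818 transcripts, the log2 fold change of ENST00000549994 was 1.32 ± 0.65 for mechanoreceptor minus nociceptor (adjusted p 0.998), 1.17 ± 0.65 for proprioceptor minus nociceptor and -0.15 ± 0.70 for proprioceptor minus mechanoreceptor (adjusted p 1 for both). No transcript was called in this fit (0% of those tested, in each contrast).

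**Figure D2:**
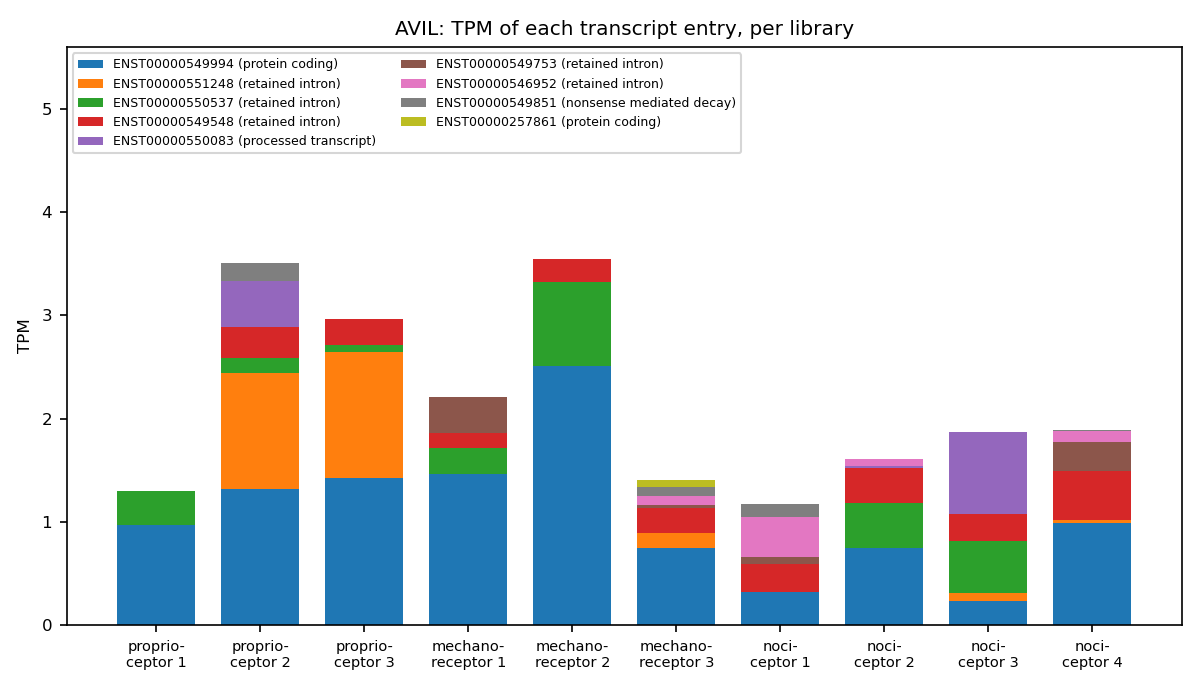
TPM of AVIL (vertical axis) in each library (horizontal axis, proprioceptor, mechanoreceptor, nociceptor), stacked by transcript entry, with the GENCODE release 29 type of each entry in the legend. The lowest segment is ENST00000549994, which reached 2.51 TPM in mechanoreceptor library 2 and 0.229 TPM in nociceptor library 3.

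VIL1, villin, the bundling protein of the microvilli of intestinal epithelium, was near the limit of detection (chromosome 2, 218419123 to 218453295). It had 2, 8 and 1 counts in proprioceptor libraries 1 to 3, 1, 2 and 2 counts in mechanoreceptor libraries 1 to 3 and 2, 1, 0 and 0 counts in nociceptor libraries 1 to 4. Its highest level was 0.144 TPM, in proprioceptor library 2. It did not pass the filter on low counts and was not tested, which leaves 7 of the 8 members in the fits.

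VILL, which encodes a villin-like protein, stayed between 0.580 and 1.81 TPM (chromosome 3, 37987978 to 38007185). It had 0.797, 1.17 and 1.27 TPM in proprioceptor libraries 1 to 3, then 0.877, 1.81 and 1.43 TPM in mechanoreceptor libraries 1 to 3. Nociceptor libraries 1 to 4 had 0.665, 0.772, 1.42 and 0.580 TPM. The protocols overlapped. Its log2 fold changes were 0.20 ± 0.48 for mechanoreceptor minus nociceptor, 0.42 ± 0.48 for proprioceptor minus nociceptor and 0.22 ± 0.52 for proprioceptor minus mechanoreceptor, with adjusted p of 0.915, 0.774 and 1 in edgeR.

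GSN, which severs actin filaments and caps their ends, had the highest mean level of the family (chromosome 9, 121201483 to 121332842). It had 52.9, 333 and 50.4 TPM in proprioceptor libraries 1 to 3. It had 56.6, 48.3 and 321 TPM in mechanoreceptor libraries 1 to 3. In nociceptor libraries 1 to 4 it had 328, 523, 841 and 82.3 TPM. Proprioceptor library 2, mechanoreceptor library 3 and nociceptor libraries 1 to 3 were at 321 TPM or above, the other 5 were at 82.3 TPM or below, and no library lay between. Each protocol thus held libraries of both kinds, and the ranges overlapped.

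The log2 fold change of GSN was -1.81 ± 0.95 for mechanoreceptor minus nociceptor (edgeR adjusted p 0.609). It was -1.67 ± 0.94 for proprioceptor minus nociceptor (adjusted p 0.665) and 0.13 ± 0.96 for proprioceptor minus mechanoreceptor (adjusted p 1). Mean levels were 146 ± 163, 142 ± 155 and 444 ± 320 TPM for the proprioceptor, mechanoreceptor and nociceptor protocols (SD, n = 3, 3 and 4), so the SD was larger than the mean in the first 2. Without mechanoreceptor library 3 the mechanoreceptor minus nociceptor difference was -3.33 ± 1.01, and without proprioceptor library 2 the proprioceptor minus nociceptor difference was -2.75 ± 1.07, neither with a call.

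The GSN transcripts differ at the start of their coding sequence, which decides whether the protein is secreted. The starts are shown 5′ to 3′ up to 30 bases from the ATG that all of them share, in capitals, read from GENCODE release 29 (GRCh38, chromosome 9, plus strand).
ENST00000373818: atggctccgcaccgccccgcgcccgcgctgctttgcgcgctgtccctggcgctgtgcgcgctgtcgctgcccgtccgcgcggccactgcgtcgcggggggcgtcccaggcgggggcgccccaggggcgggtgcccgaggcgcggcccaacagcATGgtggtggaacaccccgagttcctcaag
ENST00000449733: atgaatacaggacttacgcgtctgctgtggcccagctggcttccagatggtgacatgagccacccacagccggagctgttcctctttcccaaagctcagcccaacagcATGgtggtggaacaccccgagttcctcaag
ENST00000373808: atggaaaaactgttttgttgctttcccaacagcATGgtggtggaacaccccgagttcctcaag
ENST00000373823: ATGgtggtggaacaccccgagttcctcaag
ENST00000373818 encodes the secreted form, with 51 codons before the shared ATG, which include the signal peptide, and 782 codons in all. ENST00000449733 has 36 codons before it and 767 in all, and ENST00000373808 has 11 before it and 742 in all. ENST00000373823 starts at the shared ATG, with 731 codons, and is the start of cytoplasmic gelsolin. The shared part matched over 300 bases in all 4.

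The most abundant GSN entry, ENST00000432226, had 44.3, 193 and 40.7 TPM in proprioceptor libraries 1 to 3, then 50.2, 39.5 and 202 TPM in mechanoreceptor libraries 1 to 3. In nociceptor libraries 1 to 4 it had 198, 305, 454 and 58.1 TPM. Its implied length was 2595 nt, against 1042 nt for the earlier version of the identifier in release 29, so the reading frame of the deposited entry was not used here. In release 29 it starts its coding sequence at the shared ATG, at position 121301972.

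ENST00000373808 separated the libraries more widely than the gene did. It had 3.53, 98.3 and 3.85 TPM in proprioceptor libraries 1 to 3, 3.81, 3.68 and 74.0 TPM in mechanoreceptor libraries 1 to 3 and 78.4, 149, 283 and 16.5 TPM in nociceptor libraries 1 to 4. Its share of GSN TPM was 6.68%, 29.5% and 7.63% in the proprioceptor libraries, 6.73%, 7.61% and 23.1% in the mechanoreceptor ones, and 23.9%, 28.4%, 33.6% and 20.1% in the nociceptor ones. The 6 libraries with a share of 20.1% or more were the 5 with high GSN and nociceptor library 4, and the other 4 lay at 7.63% or below. The mechanoreceptor minus nociceptor difference was -14.0 points (two-sided exact permutation test, p = 0.0857, adjusted p 0.45), and the proprioceptor minus nociceptor difference was -11.9 points (exact permutation p = 0.2, adjusted p 0.491).

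The secreted entry, ENST00000373818, made up little of GSN. It had 0.355, 7.92 and 0.681 TPM in proprioceptor libraries 1 to 3 and 0, 0 and 5.64 TPM in mechanoreceptor libraries 1 to 3. The nociceptor libraries had 9.23, 16.9, 26.9 and 0.964 TPM. Its share was at most 3.23% of GSN TPM, in nociceptor library 2. In mechanoreceptor libraries 1 and 2, the count of 0 allows a share of up to 0.0904% and 0.0961% of GSN counts. The mean share was 1.47% ± 0.859, 0.586% ± 1.01 and 2.60% ± 0.973 in the proprioceptor, mechanoreceptor and nociceptor libraries (SD, n = 3, 3 and 4). The mechanoreceptor minus nociceptor difference was -2.02 points (two-sided exact permutation test, p = 0.0857, adjusted p 0.45).

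**Figure D3:**
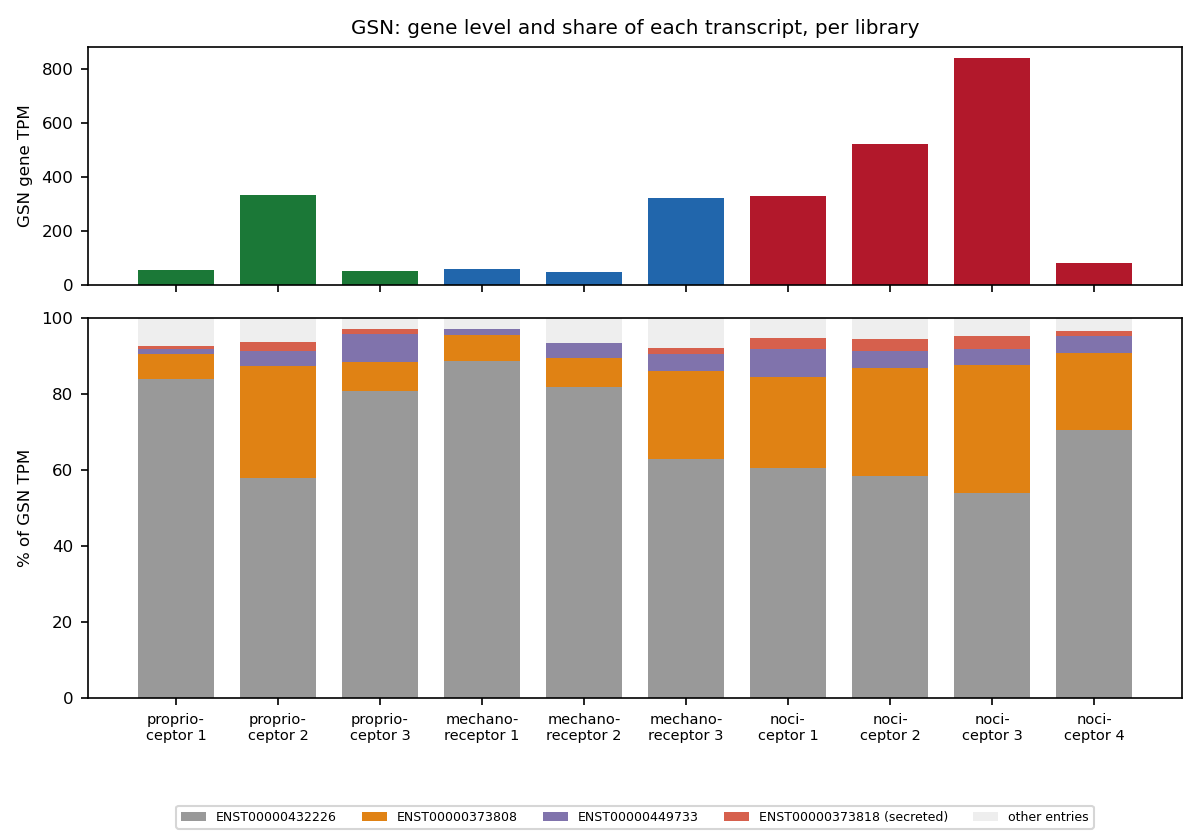
Upper panel, GSN gene level (TPM) in each library, in the order proprioceptor, mechanoreceptor, nociceptor. Lower panel, the percentage of GSN TPM held by each of 4 transcript entries. The ENST00000373808 segment spans 20.1% to 33.6% in nociceptor libraries and 6.68% to 29.5% in proprioceptor libraries.

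SCIN, scinderin, which severs and caps filaments in secretory cells, had low counts throughout (chromosome 7, 12570720 to 12660182). It had 0.217, 0.637 and 0.197 TPM in proprioceptor libraries 1 to 3 and 0.240, 0.418 and 0.127 TPM in mechanoreceptor libraries 1 to 3. In nociceptor libraries 1 to 4 it had 1.10, 1.53, 0.159 and 0.934 TPM, from 57, 95, 34 and 46 counts. In TPM, nociceptor library 3 lay among the low values, and the other 3 lay above every proprioceptor and mechanoreceptor library. In CPM, closer to the scale of the test, nociceptor library 1 (1.28) lay just below proprioceptor library 3 (1.29), and nociceptor library 3 (1.09) lay above the mechanoreceptor libraries (0.662 to 0.897). The mechanoreceptor minus nociceptor difference was -1.13 ± 0.48 on the log2 scale (unadjusted p 0.0384, edgeR adjusted p 0.598). The other differences were -0.47 ± 0.47 for proprioceptor minus nociceptor (adjusted p 0.740) and 0.66 ± 0.50 for proprioceptor minus mechanoreceptor (adjusted p 1).

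CAPG, which caps filament ends but does not sever and is best known from macrophages, had the widest ratio of highest to lowest library among the 7 members with reads in all libraries (chromosome 2, 85391602 to 85419540). It had 3.91, 20.3 and 1.13 TPM in proprioceptor libraries 1 to 3 and 0.297, 1.42 and 10.5 TPM in mechanoreceptor libraries 1 to 3. In nociceptor libraries 1 to 4 it had 15.9, 65.5, 33.2 and 4.79 TPM. The 5 highest libraries were the 5 with high GSN. The mechanoreceptor minus nociceptor difference was -3.00 ± 1.35 (unadjusted p 0.0487, edgeR adjusted p 0.598), and the proprioceptor minus nociceptor difference was -1.99 ± 1.28 (adjusted p 0.666). For proprioceptor minus mechanoreceptor it was 1.01 ± 1.31 (adjusted p 1). The first was -5.31 ± 1.53 without mechanoreceptor library 3, and the second was -3.27 ± 1.55 without proprioceptor library 2 and -1.22 ± 1.29 without nociceptor library 2. The 5 macrophage markers summed to 0.997 to 4.36 TPM in the proprioceptor libraries, 1.88 to 4.54 TPM in the mechanoreceptor libraries and 2.31 to 8.92 TPM in the nociceptor libraries. Their 5 highest averages of log2 CPM (CPM being counts relative to library size), -1.43 to -1.23, were in the 5 libraries with high CAPG, against -2.23 to -1.69 in the other 5. Single markers did not all follow this. CD68 had 0.80 to 3.25 against -0.72 to 1.39, PTPRC -1.76 to 0.30 against -1.34 to -0.07 and CSF1R -1.93 to -0.13 against -1.62 to 0.28. CD14 and AIF1 stayed at -1.93 or below in all libraries. The part of these markers in the CAPG differences was not tested.

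FLII, whose product joins gelsolin domains to leucine-rich repeats and also acts in the nucleus, had the narrowest such ratio (chromosome 17, 18244815 to 18259022). It had 30.3, 80.9 and 67.8 TPM in proprioceptor libraries 1 to 3, 66.3, 71.8 and 68.1 TPM in mechanoreceptor libraries 1 to 3 and 37.7, 48.5, 73.0 and 60.8 TPM in nociceptor libraries 1 to 4. Proprioceptor library 1 was the lowest and proprioceptor library 2 the highest. Its log2 fold changes were 0.35 ± 0.29 for mechanoreceptor minus nociceptor, 0.04 ± 0.30 for proprioceptor minus nociceptor and -0.30 ± 0.32 for proprioceptor minus mechanoreceptor (edgeR adjusted p 0.717, 0.973 and 1). The gene entry was 2.00 times the sum of its release 29 transcripts in every library, and each of 27 transcripts with signal had a second entry of equal values, so the FLII reads were divided between 2 copies of the gene in the index and added again at gene level.

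SVIL, supervillin, a large membrane-associated member that binds actin and myosin, was high in the same libraries as GSN (chromosome 10, 29457338 to 29736936). It had 3.64, 24.3 and 3.94 TPM in proprioceptor libraries 1 to 3 and 2.53, 4.76 and 15.4 TPM in mechanoreceptor libraries 1 to 3. The nociceptor libraries had 16.4, 19.8, 20.4 and 6.75 TPM. The 5 highest libraries were again the 5 with high GSN. Its log2 fold changes were -1.20 ± 0.93 for mechanoreceptor minus nociceptor, -1.002 ± 0.92 for proprioceptor minus nociceptor and 0.20 ± 0.96 for proprioceptor minus mechanoreceptor (edgeR adjusted p 0.691, 0.719 and 1). The first was -2.73 ± 0.99 without mechanoreceptor library 3. The second was -2.72 ± 0.95 without proprioceptor library 2, -0.65 ± 1.05 without proprioceptor library 1 and -0.55 ± 0.96 without proprioceptor library 3. The release 29 transcripts held 18.7% to 62.1% of the SVIL gene level, and the remainder lay in entries that were not named here. Of the genes that overlap the other members in the annotation, RAB14 (over the GSN start) had 60.4 to 285 TPM, ELMOD3 and SH2D6 (CAPG) had 9.35 to 25.3 and 0.354 to 2.70 TPM, USP37 (VIL1) had 2.46 to 12.9 TPM and LLGL1 (FLII) had 0.209 to 0.887 TPM. SVIL-AS1 had 1 count in 1 library, and CKS1BP2, inside SVIL, had 0 in all 10.

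Across the family, 0 of 7 tested members passed the threshold in any contrast or in the F test over the 3 protocols, and edgeR called 0% of all 16130 genes in each. At an unadjusted p under 0.05, 2 members (SCIN and CAPG) passed for mechanoreceptor minus nociceptor, beside 1320 of all genes, and 0 for the other contrasts, beside 998 and 241. DESeq2 also called 0 members. It called 0.806% of all genes for mechanoreceptor minus nociceptor, 0.192% for proprioceptor minus nociceptor, 0% for proprioceptor minus mechanoreceptor and 0.49% over the 3 protocols, with 3, 1, 0 and 2 members at an unadjusted p under 0.05, beside 1718, 1478, 296 and 1362 of all genes. The median log2 fold change of the 7 members was -1.13, -0.47 and 0.20 in the 3 contrasts in that order, beside 0.0018, 0.03 and 0.04 for all genes tested. None of the 8 members had TPM ranges that did not overlap between 2 protocols, which 10.1%, 2.68% and 5.58% of the 13941 genes with a mean of at least 1 TPM had for mechanoreceptor and nociceptor, proprioceptor and nociceptor, and proprioceptor and mechanoreceptor. In CPM, AVIL in the proprioceptor libraries (3.16 to 3.74) lay above the nociceptor libraries (1.28 to 2.94). SCIN in the mechanoreceptor libraries (0.662 to 0.897) lay below the nociceptor (1.09 to 2.71) and proprioceptor libraries (0.942 to 1.29). The share of all genes without such overlap in CPM was not computed, so these separations have no background here. The 2 contrasts against the nociceptor protocol share its 4 libraries.

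The average level of the fibroblast and mesenchyme markers moved with GSN, CAPG and SVIL. As an average of log2 CPM, the 14 markers had 1.14, 4.34 and 1.13 in proprioceptor libraries 1 to 3. They had 0.59, 0.85 and 4.32 in mechanoreceptor libraries 1 to 3. Nociceptor libraries 1 to 4 had 5.002, 5.23, 5.12 and 2.35. The 10 glial markers averaged 2.81, 6.23 and 1.92 log2 CPM under the proprioceptor protocol, 0.98, -0.53 and 5.99 under the mechanoreceptor protocol and 6.86, 6.48, 7.35 and 4.27 under the nociceptor protocol. The libraries with high marker levels were the 5 with high GSN. The same 5 held the highest averages of the smooth muscle list (3.10 to 4.36, against 0.67 to 2.31 in the other 5) and of the proliferation list (1.58 to 4.17, against -0.28 to 1.45). They held the lowest averages of the pan-neuronal list (8.24 to 8.89, against 9.18 to 9.71) and of the sensory identity list (4.46 to 5.47, against 5.82 to 6.36). Within the smooth muscle list, MYH11 (-0.74 to 0.49, against -0.41 to 1.22) and CNN1 (1.98 to 5.14, against 1.48 to 2.93) overlapped between these sets of libraries. ACTA2, TAGLN and SMTN did not. Of the mesenchyme markers, DCN (0.52 to 2.65, against -0.56 to 1.75) and TWIST1 (-4.11 to -2.32, against -4.11 to -1.37) overlapped. So did PRRX1 (-3.51 to 2.36, against -4.11 to 0.83), PDGFRA (-1.76 to 2.09, against -4.11 to -1.64) and THY1. Markers of the other lists overlapped too, among them MBP and FABP7 (glia), SNAP25 (pan-neuronal), NTRK2 (sensory identity) and CCNB1 (proliferation). The covariate used below is the average of all 14 mesenchyme markers. In bulk RNA, more cells of a type and more RNA per cell cannot be told apart. With the mesenchyme level as a covariate, the GSN difference was -0.09 ± 0.52 for mechanoreceptor minus nociceptor and 0.07 ± 0.50 for proprioceptor minus nociceptor. For SVIL these differences were 0.48 ± 0.35 and 0.34 ± 0.33, of the opposite sign to those without the covariate. For CAPG they were -1.22 ± 0.85 and 0.15 ± 0.84. For AVIL they were 0.37 ± 0.55 and 0.47 ± 0.50, against 0.88 and 0.85 without the covariate. In log2 CPM, AVIL had 1.79, 1.11, 0.60, 1.37 and 0.50 in the 5 libraries with high markers (proprioceptor 2, mechanoreceptor 3 and nociceptor 1 to 3) and 1.47 to 2.64 in the other 5, so its 4 lowest values were all in libraries with high markers. The marker level and the protocol are partly confounded, since 3 of 4 nociceptor libraries were high. The part of glia, smooth muscle, macrophages, dividing cells and the neuronal share in these results was not tested.

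**Figure D4:**
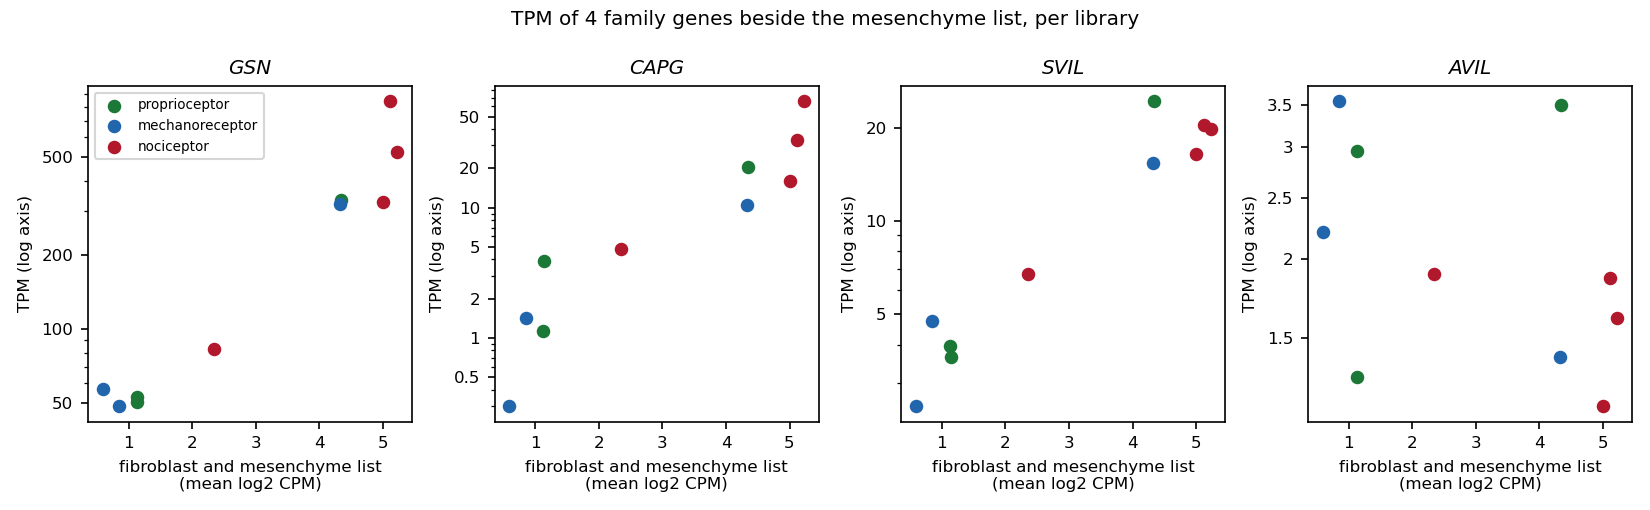
TPM of GSN, CAPG, SVIL and AVIL (log axis) against the mean log2 CPM of 14 fibroblast and mesenchyme markers, 1 point per library, with proprioceptor, mechanoreceptor and nociceptor libraries in green, blue and red. The 5 libraries with a marker level of 4.32 or more hold the 5 highest values of GSN, CAPG and SVIL, while AVIL spans 1.17 to 3.51 TPM in these 5 libraries and 1.30 to 3.55 TPM in the other 5.

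**Figure D5:**
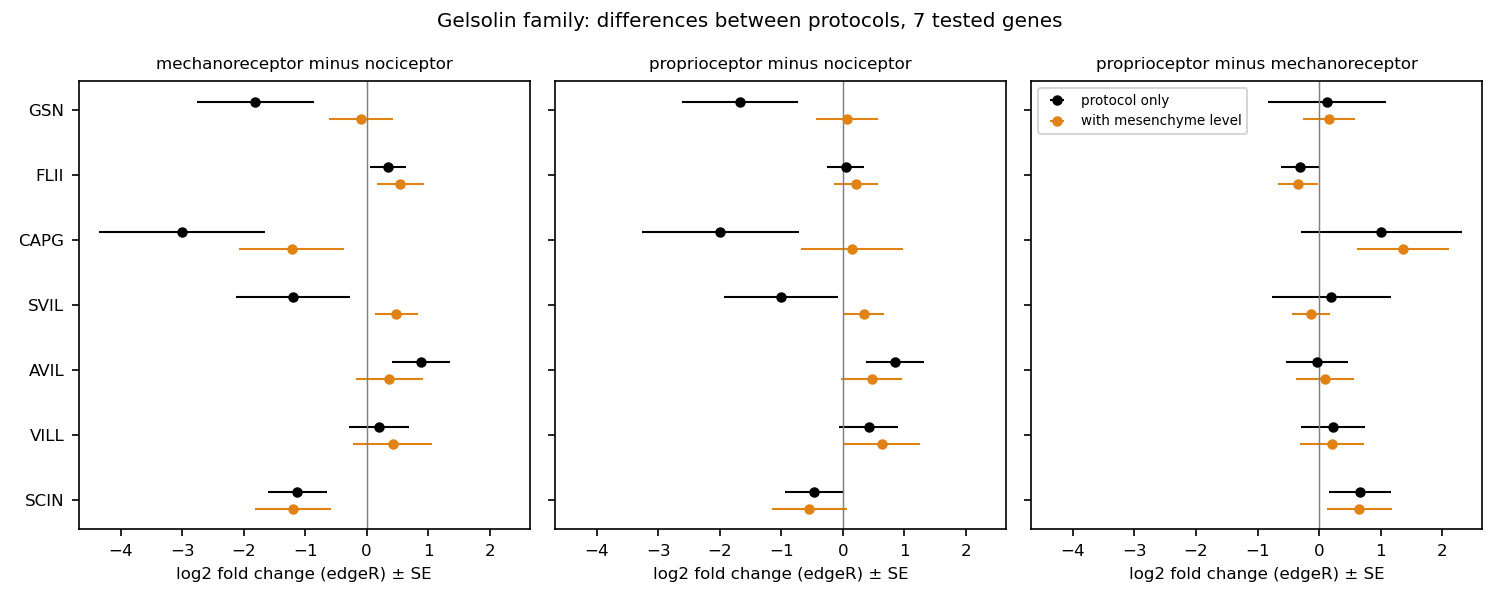
Log2 fold change ± SE (horizontal axis, edgeR, 10 libraries) of the 7 tested members in the 3 contrasts, with protocol alone in black and with the mesenchyme level added in orange. GSN moves to near 0 in both contrasts with the nociceptor protocol once the marker level is added, while SCIN stays at a similar value.

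The genes most like each of AVIL and GSN were named by Pearson r of log2(TPM + 1) over the 10 libraries, among 13940 genes, as a description without a test. For AVIL they were CMTM1 (r = 0.931), RTL10 (0.902), FAM201B (0.894), SORD (0.887) and CCL27 (0.877). For GSN they included UNC93B1 (0.996), DLX1 (0.995), SP110 (0.993) and HLA-B (0.992). Within the family, SVIL had r = 0.946 and CAPG r = 0.927 with GSN, at ranks 477 and 675, and AVIL had r = -0.329. The GSN libraries form 2 separate sets, so these r values mainly measure the gap between them.

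The actin genes around the family, 78 genes in 9 lists chosen by function, gave no call in edgeR (0 of 78, at 5, 8 and 2 genes with an unadjusted p under 0.05 for mechanoreceptor minus nociceptor, proprioceptor minus nociceptor and proprioceptor minus mechanoreceptor, beside 8.18%, 6.19% and 1.49% of all genes). DESeq2 called 1 of the 78 in its test over the 3 protocols, TMSB15A, a thymosin that sequesters actin monomers. In edgeR its differences were -1.46 ± 0.38 for mechanoreceptor minus nociceptor and 1.88 ± 0.40 for proprioceptor minus mechanoreceptor, with adjusted p of 0.598 and 1. The 4 other villin headpiece proteins, none of them called, had median differences of 0.57 for mechanoreceptor minus nociceptor and 0.49 for proprioceptor minus nociceptor, beside 0.0018 and 0.03 for all genes. They summed to 53.5, 206.0 and 211 TPM in proprioceptor libraries 1 to 3, to 176 to 192 TPM in the mechanoreceptor libraries and to 88.2 to 136 TPM in the nociceptor libraries, so proprioceptor library 1 was the lowest of all 10. Of the 11 crosslinking genes, none of them called, 7 had a difference below 0 in each contrast with the nociceptor protocol, with medians of -0.62 and -0.44, where 49.9% and 47.8% of all genes had one below 0. Their average log2 CPM was 3.80 to 4.59 in the 5 libraries with high mesenchyme markers and 2.29 to 3.51 in the other 5. PLS3, a plastin that bundles filaments, had -1.87 ± 0.78 and -1.74 ± 0.77 (adjusted p 0.598 and 0.665).

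Among the other lists, TMOD1, which caps pointed ends, had 1.31 ± 0.39 for proprioceptor minus nociceptor (edgeR adjusted p 0.665) and EPS8, a barbed-end capper, -1.87 ± 0.80. EVL, which promotes filament elongation, had 1.06 ± 0.39 in that contrast. ACTC1, the cardiac muscle actin, had -1.39 ± 0.56 for mechanoreceptor minus nociceptor and 1.59 ± 0.59 for proprioceptor minus mechanoreceptor, and the Arp2/3 subunit ACTR3B had 0.64 ± 0.21 for mechanoreceptor minus nociceptor. The FLII partners LRRFIP1 and LRRFIP2 had differences between -0.21 and 0.26 in all contrasts. GMFG and CORO1A, which act on Arp2/3 networks and filament turnover, had 1.88 ± 0.69 and 0.93 ± 0.52 for proprioceptor minus nociceptor. In the same contrast the formin DAAM1 had 0.68 ± 0.28, PLS1, a second plastin, 0.93 ± 0.46, the skeletal muscle actin ACTA1 0.98 ± 0.51 and VASP, a relative of EVL, -0.25 ± 0.32. PFN1, profilin, had -0.996 ± 0.51 for mechanoreceptor minus nociceptor, and ABLIM1, an actin-binding LIM protein, had 0.59 ± 0.37. None of these had an adjusted p under 0.05.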

How the data were processed

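RNA-seq of 10 libraries was used and treated as bulk: the series' design text mentions 10x genomics, but the labels' protocols and the files give 1 library per sample. The labels' protocols name Trizol for extraction, the Clontech Ultra Low v4 kit for cDNA and NexteraXT for libraries, and paired 75 nt reads. The submitters' processing notes name kallisto 0.50.1 and GRCh38.p14. In these files, estimated counts (deposited as whole numbers) and TPM are given by the authors per gene and per transcript. The step from transcripts to genes is not given in the sources used here, and reads of near-identical copies are divided by estimation.

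Members and gene lists were chosen with earlier results of these data known. Named genes were the 8 members, their overlapping genes and the neighbours of AVIL, the 5 genes most like AVIL and GSN, and the 2 genes with the lowest p in each actin list. Some genes that this rule names are not reported here. The actin lists were actins, filament severing and recycling, filament end capping, monomer binding, nucleation, elongation by Ena/VASP, crosslinking, other villin headpiece proteins and partners of FLII. The entry with a blank name (0.733% to 1.66% of counts) was left out.

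The rounded counts were tested with edgeR 4.0.16 (R 4.3.3; filterByExpr, TMM, glmQLFit and glmQLFTest, 1 mean per protocol over 10 libraries), two-sided, with Benjamini-Hochberg adjustment over 16130 genes and a threshold of 0.05. Alternatives were DESeq2 1.42.0 and limma 3.58.1 on log2(TPM + 1) or log2(TPM + 0.1) among others. The test was run on simulated data first. Transcript shares were compared by exact permutation tests over libraries (scipy 1.17.1). Transcripts were named by identifier in GENCODE release 29, and promoters and coordinates come from RefSeq. PCR reads are not independent molecules, so limits on shares cover counting error only. SE is of the log2 fold change.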

Additional observations from a re-analysis of the deposited data

Results flagged for a closer look

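The share of GSN TPM in ENST00000449733, whose coding sequence starts 36 codons before the shared ATG, was 7.58% in nociceptor library 1, beside 4.47%, 4.34% and 4.55% in nociceptor libraries 2 to 4. That library stood apart from the other 3. This was 1 of 15 groups of nociceptor values examined in this way, and chance marks about 1 in 20 such groups. Proprioceptor library 3 had a share of 7.34%, beside 1.39% and 3.75% in the other proprioceptor libraries.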

How the results depend on the processing

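No member was called in any contrast or in the F test under any alternative. These were RLE size factors, DESeq2, no filter on low counts, limma on log2(TPM + 1) and log2(TPM + 0.1), the replicate block, the mesenchyme level as a covariate, and leaving out each library. Outside the runs that left out a library, 16 recomputed values changed sign, and the cause was not tested. The other 186 kept their sign or, for the counts of called members, stayed at 0. For proprioceptor minus mechanoreceptor, AVIL was 0.014 with RLE size factors and 0.012 with DESeq2, 0.077 and 0.098 with limma (pseudocounts 1 and 0.1), 0.13 with the replicate block and 0.097 with the covariate. VILL was -0.18 and -0.29 with limma, and ENST00000549994 was 0.10 with the replicate block and 0.049 with the covariate. With the covariate, SVIL was 0.48, 0.34 and -0.14 for mechanoreceptor minus nociceptor, proprioceptor minus nociceptor and proprioceptor minus mechanoreceptor, and for proprioceptor minus nociceptor GSN was 0.069 and CAPG 0.15. FLII for proprioceptor minus nociceptor was -0.017 with the replicate block. Correlations of deviations from the protocol means ran between -0.63 and 0.49 for same-numbered libraries and between -0.60 and 0.79 for other pairs. As these ranges overlap, they cannot decide whether the replicate numbers pair the libraries. The block gave 0 calls among members, as did the fit without it, with AVIL at 1.01 and GSN at -2.36 for mechanoreceptor minus nociceptor. In the block fit 2392 genes had an unadjusted edgeR p under 0.05 in that contrast, against 1320 without the block. For proprioceptor minus nociceptor it was 1974, against 998. Members under it were GSN (0.0299) and CAPG (0.0416) in the first contrast, with adjusted p of 0.299 and 0.320. In the second it was AVIL (1.13 ± 0.46, p 0.0435, adjusted p 0.407).

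Leaving out each library in turn gave, for proprioceptor minus mechanoreceptor, -0.29 to 0.52 for AVIL, -0.91 to 1.65 for GSN, -0.25 to 3.31 for CAPG, -1.48 to 1.71 for SVIL and -0.48 to 0.41 for ENST00000549994. For mechanoreceptor minus nociceptor and proprioceptor minus nociceptor it gave -3.33 to -1.27 and -2.75 to -1.14 for GSN, -5.31 to -2.23 and -3.27 to -1.22 for CAPG, -2.73 to -0.82 and -2.72 to -0.55 for SVIL, -1.27 to -0.80 and -0.70 to -0.14 for SCIN, and 8.30 points to 26.7 points for the AVIL share of ENST00000549994 in the second contrast. It gave -0.051 to 0.60 for VILL (mechanoreceptor minus nociceptor) and -0.14 to 0.27 for FLII (proprioceptor minus nociceptor). The adjusted p of GSN for mechanoreceptor minus nociceptor ran between 0.195 and 1 over all alternatives. AVIL, SCIN, VILL and VIL1 rest on low counts, which limits what they can show.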
